A study of Mus musculus with 48 samples.

Results

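The Frizzled receptors are the 10 genes Fzd1 to Fzd10, and their rows were taken by symbol from a table of 55357 genes counted in 48 dentate gyrus libraries. All 10 genes were found and all 10 passed the low-count filter of edgeR, which left 21390 genes for testing. The libraries came from 24 wild-type C57BL/6J mice, 1 from each dorsal dentate gyrus. The labels give the animals as 6 to 8 weeks old and the methods as 8 to 10 weeks old, and each group of 4 mice held 2 males and 2 females. Kainate or saline was injected into the hippocampus of 1 side, and tissue was taken 3, 7 or 14 days later. The injected side is the epileptogenic zone (EZ) and the opposite side of the same mouse is the peri-ictal zone (PIZ), so that region, treatment and day define 12 groups of 4 libraries. Kainate is a glutamate receptor agonist, and the saline groups received the vehicle by the same route. The animals were of 1 inbred strain and carried no engineered allele.

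Frizzled proteins are multi-pass membrane receptors that bind Wnt ligands through a cysteine-rich outer domain. With the co-receptors Lrp5 and Lrp6 they stabilise beta-catenin, and with Ror1, Ror2, Ryk or Ptk7 they act on the cytoskeleton and on planar cell polarity. In the dentate gyrus, Wnt signalling is known for its part in the birth and maturation of granule cells. The ubiquitin ligases Rnf43 and Znrf3 remove Frizzled from the cell surface, and R-spondins acting through Lgr receptors prevent this. By sequence the family falls into the branches Fzd1, Fzd2 and Fzd7, then Fzd5 and Fzd8, then Fzd4, Fzd9 and Fzd10, and last Fzd3 and Fzd6.

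Library totals lay between 17762656 and 25712975 counts, and levels are given as CPM, depth-normalised counts on library sizes scaled by TMM. Log2 fold changes came from 1 edgeR quasi-likelihood model of all 48 libraries. Differentially expressed genes, here written as called, had a p under 0.01 after Benjamini-Hochberg adjustment over all 21390 genes and changed by more than 1.5-fold. The ± of a log2 fold change is its standard error in that model, with n = 4 mice a group. Counts limit the rarer members, since Fzd5 held 16 to 116 counts a library and Fzd10 held 0 to 61. The tissue is a bulk dissection, so fewer cells of a type and less RNA per cell cannot be told apart in any value below. Granule cell markers were present in every group, and their summed level in the EZ ran from 235 CPM in mouse 21 to 825 CPM in the kainate libraries of day 7 and from 695 to 1087 CPM in saline.

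Most of each Frizzled gene can be told from its relatives by sequence. In the Gencode M39 transcripts on GRCm39, stretches of 31 identical bases, leaving out those made of 1 or 2 base types, were shared only among Fzd1, Fzd2 and Fzd7. They made up at most 1.46% of the 31-base stretches of a transcript. The longest shared runs are shown because a read has to reach past one to be told apart, and all lie in coding sequence. They are written along the strand of the genes, with no capitals.
Fzd1 and Fzd2, 47 bases (chr5:4806331-4806377, minus strand, and chr11:102496566-102496612, plus strand): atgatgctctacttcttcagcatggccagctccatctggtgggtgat
Fzd1 and Fzd7, 47 bases (chr5:4806964-4807010, minus strand, and chr1:59522503-59522549, plus strand): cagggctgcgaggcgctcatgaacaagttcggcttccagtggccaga
Fzd2 and Fzd7, 38 bases (chr11:102496890-102496927 and chr1:59523457-59523494, both plus strand): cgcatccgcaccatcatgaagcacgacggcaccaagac
No other pair of members shared such a stretch. The canonical transcripts of Fzd1, Fzd2, Fzd8, Fzd9 and Fzd10 have 1 exon, those of Fzd4, Fzd5 and Fzd7 have 2, and those of Fzd3 and Fzd6 have 7. Every member but Fzd1, Fzd4 and Fzd8 overlaps an annotated gene on the other strand, and the counting was set to use strand. Fzd3 and Fzd4 also overlap a gene on their own strand, Gm54523 and AI314278, and reads in the shared stretch are uncertain there.

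In saline mice the dentate gyrus expressed Fzd3 above every other Frizzled gene. Fzd3 guides axon tracts and acts in planar cell polarity. Scaled to exon length, its saline level in the EZ was 7.92 ± 0.45 CPM per kb (SD, n = 12 mice, 3 days together), with a lowest library of 7.28. The next gene, Fzd4, the receptor for norrin in vessels, stood at 2.03 ± 0.30 CPM per kb with a highest library of 2.47, so the ranges of Fzd3 and Fzd4 did not meet. From there the order of the EZ means was Fzd6 at 1.67, Fzd1 at 1.59, Fzd2 at 1.29, Fzd9 at 1.13, Fzd7 at 0.990 and Fzd8 at 0.908 CPM per kb. Each of these neighbours overlapped the next in its range over libraries, from Fzd4 down to Fzd8. Below a second gap came Fzd5, at 0.238 CPM per kb with a highest library of 0.359 against a lowest Fzd8 library of 0.732. Fzd10, at 0.131 CPM per kb, overlapped Fzd5. Exon lengths came from Gencode M39 whereas the counting used M28, and a long exon union such as that of Fzd3 (13225 bases) may hold parts that few transcripts use.

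**Figure D1:**
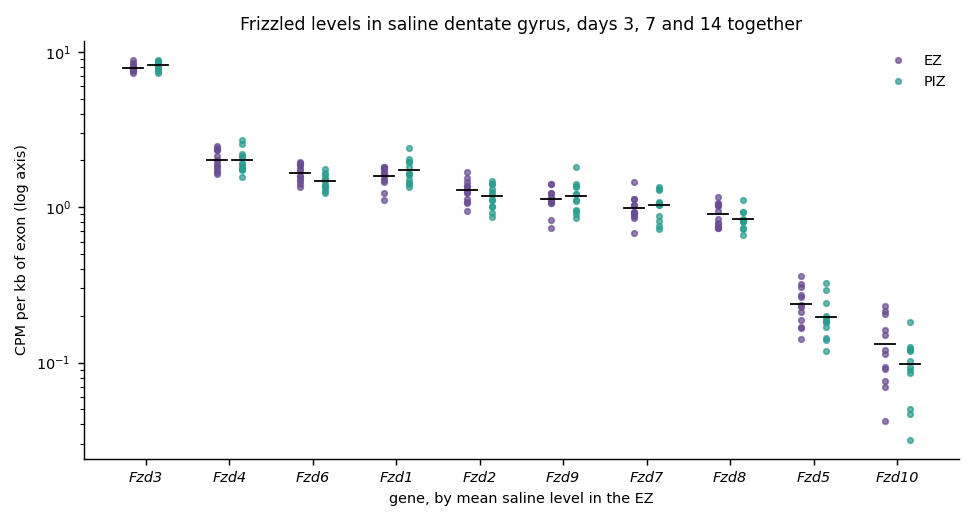
Saline level of each Frizzled gene in CPM per kb of exon on a log axis, with 12 EZ and 12 PIZ libraries a gene and lines at the means. Fzd3 stands alone at the top (EZ mean 7.92), Fzd5 (0.238) and Fzd10 (0.131) stand apart at the bottom, and the 7 genes between them overlap.

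The PIZ of the same saline mice gave levels close to these. Fzd3 stood at 8.20, Fzd4 at 2.01, Fzd1 at 1.73, Fzd6 at 1.47, Fzd9 at 1.19, Fzd2 at 1.18, Fzd7 at 1.03, Fzd8 at 0.836, Fzd5 at 0.198 and Fzd10 at 0.0974 CPM per kb. No member was called between the saline EZ and the saline PIZ by edgeR, against 0.0234% of all genes. At an unadjusted p under 0.05 the count was also 0, beside 1908 of all 21390 genes, and DESeq2 and limma-voom called 0 members. The log2 differences, EZ over PIZ, ran from -0.12 for Fzd1 to 0.45 for Fzd10, and the Fzd10 value had a standard error of 0.36.

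Kainate raised 3 Frizzled genes in the EZ at day 3 and 6 at day 7. Fzd1, Fzd6 and Fzd7 were upregulated at both days, and Fzd5, Fzd8 and Fzd9 were called at day 7 as well. No member was downregulated at either day, and the direction of each call held under every scaling tried. Over all genes 16.1% were called up and 8.61% down in the EZ at day 3, and 20.6% up and 11.9% down at day 7. Scaling by library size alone gave 4233 up of 5546 calls at day 3, where TMM gave 3439 up and 1841 down, and moved the median of all genes from 0.03 to 0.16. The median log2 fold change of the 10 members was 0.64 at day 3 and 1.01 at day 7, beside 0.03 and 0.01 over all tested genes. The 4 kainate and 4 saline libraries did not overlap for 4 of the 10 members at day 3, where 42.4% of all genes did not, and for 5 of 10 at day 7, where 43.8% did not.

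**Figure D2:**
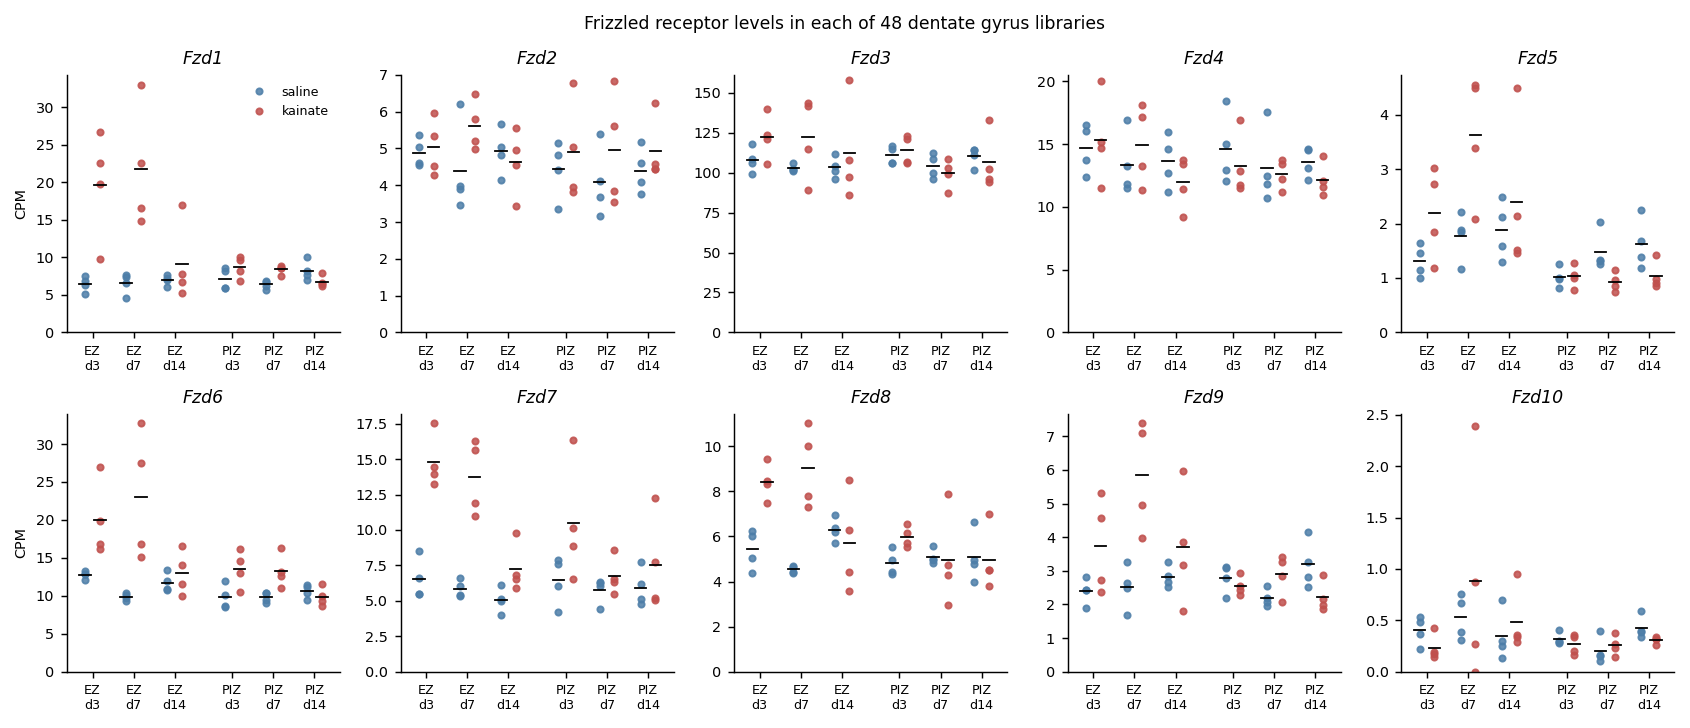
CPM of each Frizzled gene in all 48 libraries, by region and day, with saline in blue, kainate in red and lines at the means of 4 libraries. In the EZ at days 3 and 7 the kainate libraries of Fzd1, Fzd6, Fzd7 and Fzd8 lie above all saline libraries, whereas Fzd2, Fzd3 and Fzd4 overlap. Axes start at 0 and differ between genes.

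Fzd1, a receptor best known for beta-catenin signalling, changed most among the called members. At day 3 in the EZ it measured 9.81, 19.8, 22.5 and 26.7 CPM in the 4 kainate mice and 5.18, 6.27, 6.82 and 7.56 CPM in the 4 saline mice. At day 7 the kainate libraries held 14.9, 16.6, 22.6 and 32.98 CPM and the saline libraries 4.64, 6.55, 7.34 and 7.64 CPM. The groups did not overlap at either day, and the spread among kainate mice exceeded that among saline mice. Fzd1 rose by 1.61 ± 0.26 on the log2 scale at day 3 (3.05-fold, edgeR adjusted p = 5.20e-06) and by 1.73 ± 0.26 at day 7 (3.32-fold, adjusted p = 8.14e-07). The gene lies at chr5:4803839-4808035 on the minus strand of GRCm39.

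Fzd7, of the same branch and known from stem cells of the gut and embryo, rose at both days with little spread among mice. Its kainate libraries in the EZ held 13.3, 13.9, 14.4 and 17.5 CPM at day 3, over saline libraries of 5.46, 5.47, 6.62 and 8.53 CPM. At day 7 they held 11.01, 11.9, 15.6 and 16.3 CPM, over saline libraries of 5.34, 5.41, 6.04 and 6.64 CPM. Every kainate library lay above every saline library. The change was 1.18 ± 0.24 at day 3 (2.27-fold, edgeR adjusted p = 1.24e-04) and 1.23 ± 0.24 at day 7 (2.34-fold, adjusted p = 5.18e-05). Fzd7 lies at chr1:59521269-59534685 on the plus strand.

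Fzd2, also of that branch and a receptor for Wnt5a, was not called. It measured 4.28 to 5.97 CPM in kainate and 4.55 to 5.36 CPM in saline libraries of the EZ at day 3. Its log2 fold change was 0.04 with a 95% interval from -0.36 to 0.44 at day 3, and 0.35 with an interval from -0.05 to 0.76 at day 7. Both intervals lie below the point estimates of Fzd1 and Fzd7 at the same day. The difference between the genes was not tested. Fzd2 lies at chr11:102495222-102498884.

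Of Fzd6 and Fzd3, the planar polarity branch, Fzd6 was called and Fzd3 was not, and the difference between the genes was not tested. Fzd6 measured 16.2, 16.8, 19.9 and 26.97 CPM in the kainate EZ at day 3 over 12.03 to 13.2 CPM in saline. At day 7 it measured 15.1, 16.8, 27.6 and 32.8 CPM over 9.28 to 10.4 CPM. All kainate libraries were above all saline libraries, with mice 21 and 35 the highest at day 7. Fzd6 rose by 0.65 ± 0.18 at day 3 (1.56-fold, edgeR adjusted p = 0.00266) and by 1.22 ± 0.18 at day 7 (2.34-fold, adjusted p = 5.08e-07). Without kainate mouse 38 the day 3 value was 0.47 with an adjusted p of 0.0384, which is no call. Fzd6 lies at chr15:38869243-38901584.

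Fzd3, the most abundant member, stayed between 86.3 and 158 CPM over all 48 libraries. Its log2 fold change in the EZ was 0.18 ± 0.13 at day 3 (edgeR adjusted p = 0.245) and 0.25 ± 0.13 at day 7 (adjusted p = 0.0909). The upper ends of its 95% intervals were 0.44 and 0.51. As a part of the summed Frizzled level per kb, Fzd3 made up 45.3% ± 2.8 (SD, n = 4) in saline and 32.9% ± 8.6 in kainate EZ libraries at day 7. Over the same groups the part of Fzd1 was 9.03% ± 1.6 and 17.6% ± 3.2. The summed level itself was 17.2 ± 0.96 CPM per kb in saline and 28.7 ± 5.5 in kainate. Fzd3 lies at chr14:65429573-65499933.

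Fzd5 and Fzd8 share a branch and were called at day 7. Fzd8, whose cysteine-rich domain is much used to study Wnt binding, measured 7.49, 8.31, 8.45 and 9.45 CPM in the kainate EZ at day 3 and 4.37, 5.03, 6.04 and 6.26 CPM in saline. At day 7 it measured 7.29, 7.80, 9.99 and 11.03 CPM over saline libraries of 4.39 to 4.71 CPM. The groups did not overlap at either day. Fzd8 rose by 0.99 ± 0.21 at day 7 (1.99-fold, edgeR adjusted p = 1.50e-04). Its day 3 value of 0.64 ± 0.21 had an adjusted p of 0.0118 and was not called. It was called by limma-voom with quality weights and no block (0.61, adjusted p = 5.51e-05) and with mouse as a block (0.65, adjusted p = 0.00564). EdgeR called it with library size alone (0.76, adjusted p = 0.00315) and with only the compared groups fitted (0.60, adjusted p = 0.00699). With at least 10 counts in every library edgeR also called it (0.64, adjusted p = 0.00998). DESeq2, glmTreat, and edgeR with RLE scaling or with no filter for low counts did not.

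Fzd5, known from retinal development and from gut epithelium, was scarce in saline tissue. In the EZ at day 3 its kainate libraries held 28, 48, 75 and 79 counts and its saline libraries 22, 25, 30 and 37. At day 7 the kainate libraries held 41, 87, 108 and 116 counts, or 2.09, 3.39, 4.48 and 4.55 CPM. The day 7 saline libraries held 27, 37, 39 and 43 counts, or 1.17, 1.89, 1.84 and 2.22 CPM. One kainate library lay within the saline range at each day. Fzd5 rose by 1.04 ± 0.29 at day 7 (2.05-fold, edgeR adjusted p = 0.00285). At day 3 it stood at 0.74 ± 0.30 with an adjusted p of 0.0401, and limma-voom with quality weights called it (0.97, adjusted p = 8.44e-05). The day 7 call was lost without saline mouse 33 (0.88, adjusted p = 0.0202), without kainate mouse 21 (0.91, adjusted p = 0.0168) and without kainate mouse 35 (0.92, adjusted p = 0.0151). It was also lost when only the compared groups were fitted (1.03, adjusted p = 0.0211). The day 3 value was called at 0.95, with an adjusted p of 0.00992, without kainate mouse 44. Fzd5 lies at chr1:64769717-64776934 on the minus strand.

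Of the branch of Fzd4, Fzd9 and Fzd10, only Fzd9 was called. Fzd9 is known from the developing hippocampus and lies in the region deleted in Williams syndrome. In the EZ at day 7 it measured 3.98, 4.95, 7.09 and 7.38 CPM in kainate and 1.69, 2.50, 2.64 and 3.25 CPM in saline libraries, without overlap. It rose by 1.22 ± 0.25 (2.33-fold, edgeR adjusted p = 9.98e-05). At day 3 the kainate libraries held 2.36, 2.72, 4.57 and 5.32 CPM, 2 of them within the saline range of 1.90 to 2.83 CPM, and the value of 0.64 ± 0.25 had an adjusted p of 0.0354. Limma-voom with quality weights called it at day 3 (0.90, adjusted p = 3.02e-05). Fzd9 lies at chr5:135277792-135280084 on the minus strand.

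Fzd4 measured 11.5 to 20.01 CPM in the kainate EZ and 12.4 to 16.6 CPM in the saline EZ at day 3. Its log2 fold change was 0.07 with a 95% interval from -0.28 to 0.41 at day 3, and 0.16 with an interval from -0.18 to 0.51 at day 7. Markers of endothelium and pericytes, where Fzd4 is known to act, were called up for 7 of 8 genes at both days over the same libraries. Fzd4 lies at chr7:89053563-89062342.

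Fzd10 was too scarce to compare. It held 0, 7, 21 and 61 counts in the kainate EZ at day 7 and 6, 9, 13 and 16 counts in saline. The value of 0.76 had a 95% interval from -0.33 to 1.85, and the day 3 value of -0.78 one from -2.05 to 0.49. The day 7 interval holds both no change and the value of Fzd1, and the 4 kainate libraries spread widely. Fzd10 lies at chr5:128677908-128681157.

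**Figure D3:**
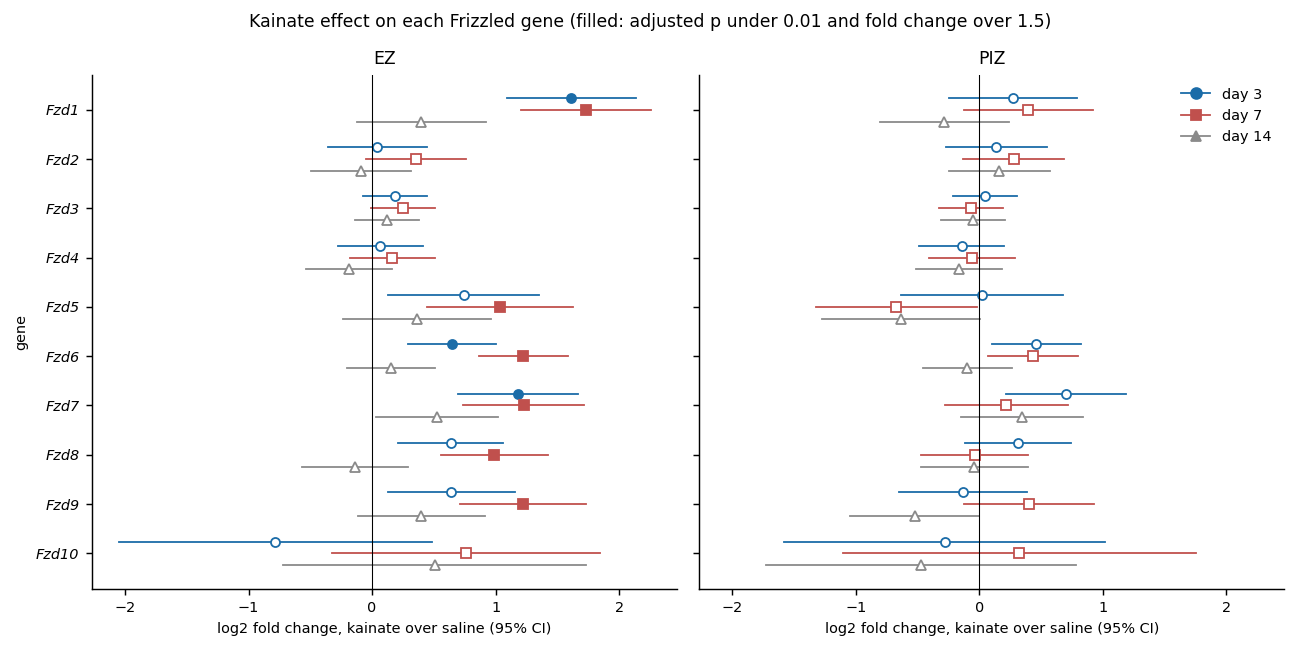
Log2 fold change of kainate over saline for each Frizzled gene with its 95% interval, in the EZ and the PIZ at days 3, 7 and 14. Filled points mark calls, which are 3 at EZ day 3 and 6 at EZ day 7, with none in the PIZ or at day 14. Fzd10 has the widest intervals.

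At day 14 no Frizzled gene was called in the EZ, where 2.32% of all genes were called up and 0.0374% down. The share over all genes depends on the fit: limma-voom with quality weights called 58 genes, limma-voom with mouse as a block 0 and edgeR on only the compared groups 0, so nothing about the members is read from it. DESeq2 and limma-voom called 0 members. An unadjusted p under 0.05 was found for 1 member, beside 3848 of all 21390 genes. That member was Fzd7, at 0.53 ± 0.25 with an edgeR adjusted p of 0.242, chosen after its value was seen. No member had separate kainate and saline libraries, against 8% of all genes. One mouse stood above the rest of its group: mouse 27 held 17.0 CPM of Fzd1 where the other kainate mice held 5.24, 6.69 and 7.81 and the saline mice 6.10 to 7.64. It also held 4.49 CPM of Fzd5 and 5.98 CPM of Fzd9, where the other kainate mice reached 2.13 and 3.84.

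Without mouse 27 the day 14 values of Fzd1, Fzd5, Fzd7 and Fzd9 were -0.08, -0.13, 0.35 and 0.07, from 0.40, 0.36, 0.53 and 0.40 with it. None of these was called. The same EZ library held summed astrocyte markers of 11655 CPM, where the other 3 kainate libraries held 5479 to 6176 CPM and the saline libraries 5050.5 to 5693 CPM. Its summed microglia markers were 2505 CPM, against 392 to 575 CPM in the other kainate libraries. Its granule cell markers were the lowest of the group at 437 CPM. Their part in the Frizzled values was not tested.

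From day 7 to day 14 the fitted change of the kainate effect in the EZ was below 0 for all 10 members. It was above 0 for 48.9% of all genes. For Fzd10 the fitted change was -0.25 ± 0.82. In mean log2 CPM its kainate minus saline difference was -0.16 at day 7 and 0.42 at day 14, the other direction. EdgeR called 0 members, where 0.271% of all genes were called. An unadjusted p under 0.05 was found for 5 members, beside 7081 of all 21390 genes. DESeq2 called 3 and limma-voom 5. The fitted changes were -1.33 ± 0.36 for Fzd1 (adjusted p = 0.0197), -1.13 ± 0.30 for Fzd8 (adjusted p = 0.0184) and -1.07 ± 0.25 for Fzd6 (adjusted p = 0.0125). Without mouse 27, edgeR called 4, and Fzd1 then stood at -1.81 (adjusted p = 5.34e-05). Without mouse 23 or mouse 26 of the day 7 kainate group it called 3.

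From day 3 to day 7 the effect in the EZ did not change by a call for any member, against 0.145% of all genes. Fzd6 was the member nearest to it, at 0.58 ± 0.25 with an unadjusted p of 0.0252 and an adjusted p of 0.328. It was the only member at an unadjusted p under 0.05, beside 2565 of all 21390 genes. DESeq2 called 0 and limma-voom 1. The 3 genes added at day 7 are therefore not shown to have changed between the days. Their differences were 0.29 ± 0.42 for Fzd5, 0.35 ± 0.30 for Fzd8 and 0.58 ± 0.36 for Fzd9.

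In the PIZ no Frizzled gene was called at any day. Over all genes 7.12% were called up and 1.57% down at day 3, 0.15% up and 0.0514% down at day 7 (56 up of 61 calls with library size alone), and 0.00935% up and 0.00468% down at day 14. At an unadjusted p under 0.05 the members numbered 2, 2 and 0, and all genes 7641, 3104 and 1277 of 21390. DESeq2 and limma-voom called 0 members at each day. The median log2 fold change of the 10 members was 0.09, 0.25 and -0.13 at days 3, 7 and 14. At day 3 the largest value was that of Fzd7, 0.70 ± 0.24 with an edgeR adjusted p of 0.0298. Its kainate libraries held 6.54, 8.87, 10.1 and 16.4 CPM and overlapped saline libraries of 4.23, 6.06, 7.57 and 7.89 CPM. Fzd6 stood at 0.46 ± 0.18 with an adjusted p of 0.0556.

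No member had separate libraries in the PIZ at day 3, where 30.7% of all genes did. At day 7, 3 members did, against 12.9% of all genes. They were Fzd1 and Fzd6, higher in kainate, and Fzd5, lower in kainate. The Fzd5 libraries held 0.748 to 1.15 CPM in kainate and 1.26 to 2.03 CPM in saline. In raw counts they overlapped, at 16, 19, 23 and 24 in kainate and 23, 26, 27 and 39 in saline, and its log2 value of -0.67 ± 0.32 had an adjusted p of 0.329. At day 14 no member did, against 7.18% of all genes.

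The kainate effect was larger in the EZ than in the PIZ at day 7 for Fzd1 and Fzd5. The difference of the effects was 1.33 ± 0.36 on the log2 scale for Fzd1 (edgeR adjusted p = 0.00779) and 1.71 ± 0.44 for Fzd5 (adjusted p = 0.00545). Of all genes 9.89% were called in this comparison. In the kainate mice at day 7, Fzd1 measured 7.58 to 8.92 CPM in the PIZ and 14.9 to 32.98 CPM in the EZ, and it was higher in the EZ in 4 of 4 mice, against 2 of 4 saline mice. Fzd5 measured 0.748 to 1.15 CPM in the PIZ and 2.09 to 4.55 CPM in the EZ of these mice, and 1.26 to 2.03 CPM in the PIZ of saline mice. It was also higher in the EZ in 3 of 4 saline mice. The Fzd5 difference thus holds a called rise in the EZ and a lower value in the PIZ. That PIZ value was not called (-0.67 ± 0.32, edgeR adjusted p = 0.329).

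For Fzd8 the difference was 1.03 ± 0.30 with an edgeR adjusted p of 0.0119. It was called by DESeq2 (1.02, adjusted p = 0.00556), by limma-voom with quality weights (1.24, adjusted p = 1.08e-04) and by edgeR with a term for each mouse (1.08, adjusted p = 0.00811). DESeq2 called 3 members in this comparison. Fzd6 stood at 0.79 ± 0.25 (adjusted p = 0.0190), Fzd7 at 1.01 ± 0.34 (adjusted p = 0.0273) and Fzd9 at 0.82 ± 0.36 (adjusted p = 0.0858). The calls of Fzd1 and Fzd5 lay close to the threshold of 0.01 and did not hold without some single mice. Both Fzd1 and Fzd5 lost the call without any 1 of the saline mice 20, 33, 34 and 89 or of the kainate mice 21 and 35, where Fzd1 ranged from 1.02 to 1.47 and Fzd5 from 1.55 to 1.80. Without kainate mouse 23 the count was 4.

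**Figure D4:**
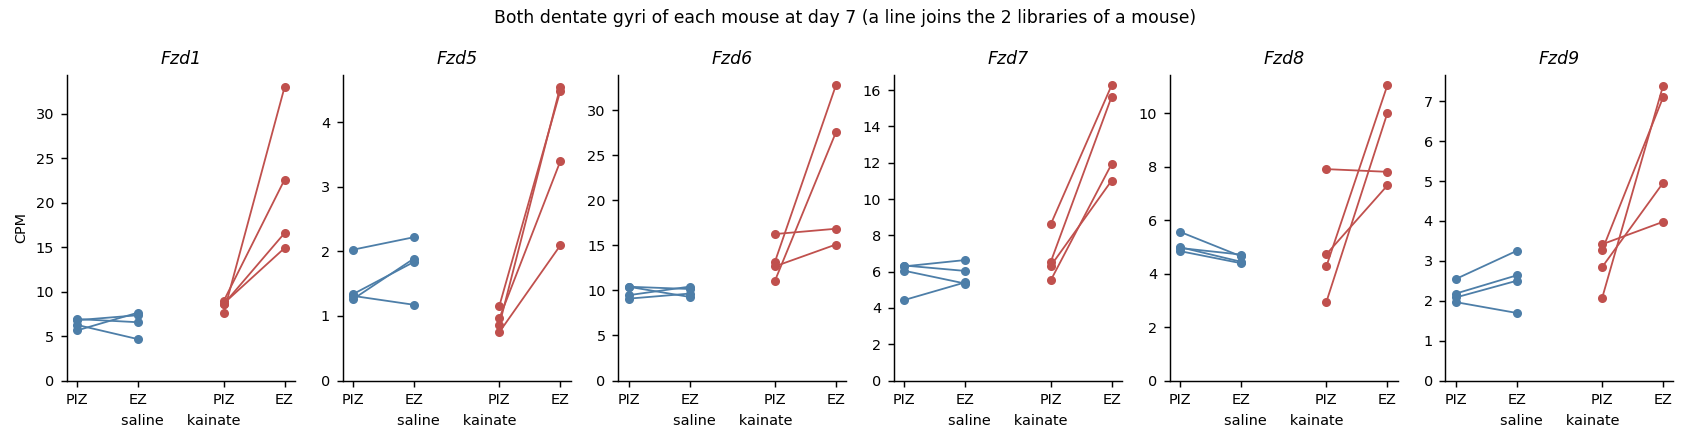
CPM in the PIZ and the EZ of each mouse at day 7 for the 6 genes called in the EZ, with saline in blue and kainate in red and a line joining the 2 libraries of a mouse. Fzd1 is higher in the EZ in all 4 kainate mice (14.9 to 32.98 against 7.58 to 8.92 CPM), whereas Fzd8 is not higher in the EZ in mouse 23 (7.80 against 7.90 CPM).

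At day 3 no member was called in the difference between regions, against 0.0655% of all genes, and at day 14 none was, against 0% of all genes. At both days 2 members had an unadjusted p under 0.05, beside 3828 of all 21390 genes at day 3 and 1562 at day 14. At day 3 these were Fzd1, at 1.34 ± 0.36 with an unadjusted p of 6.55e-04 and an edgeR adjusted p of 0.0616, and Fzd9, at 0.77 ± 0.36. DESeq2 called 0 and limma-voom 2 at day 3, and both called 0 at day 14. The values of Fzd1 at day 3 and day 7 were close, 1.34 and 1.33. In the PIZ no member changed by a call from day 3 to day 7, against 0.0234% of all genes. There were 0 members at an unadjusted p under 0.05, beside 2270 of all 21390 genes, and 0 by either of the other tools.

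Levels of the called members were compared across libraries. Over the 48 libraries, log2 CPM of Fzd1 correlated with that of Fzd6 at a Pearson r of 0.82, with Fzd7 at 0.77 and with Fzd9 at 0.75. These libraries share depth, region and treatment, so the values are a description. After group means were removed, r was 0.51 for Fzd1 and Fzd6, 0.40 for Fzd1 and Fzd7 and 0.58 for Fzd1 and Fzd9, and -0.07 for Fzd6 and Fzd7. At day 7 the kainate mice 21 and 35 had the highest EZ level of all 6 called genes, and mice 23 and 26 the lowest.

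The genes most alike to each member were ranked by r over the 48 libraries. For Fzd1 they were Lbh, Eaf1 and Pofut2, at r of 0.93 each. For Fzd6 they were Mavs, Txnip and Cpt1a, at 0.94, 0.93 and 0.93. For Fzd7 they were Acot1, Nedd9 and Prr13, at 0.89, 0.89 and 0.88, and for Fzd8 Ybx1, 2810025M15Rik and H3f3b, at 0.88, 0.86 and 0.86. Fzd9 was most like Gas6, Lmo2 and Igf1, at 0.83, 0.83 and 0.82, and Fzd5 most like Rassf3, Pde4c and Dbhos, at 0.82, 0.80 and 0.80. Fzd3 was most like Ptpn2, Ago2 and Nlk, at 0.81, 0.79 and 0.79, and Fzd4 most like Abcg2, Paqr5 and Paics, at 0.67, 0.64 and 0.64. For Fzd2 they were Klf2, Ift27 and Rhob, at 0.63, 0.59 and 0.59, and for Fzd10 Gm49394, Igf2 and Nudt4, at 0.64, 0.64 and 0.63. These r hold the group differences. After group means were removed they ran from 0.55 (Fzd2 and Klf2) to 0.85 (Fzd6 and Txnip).

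Cell type markers moved over the same libraries. In the EZ, 7 of 8 microglia markers were called up at day 3 and 8 of 8 at day 7, where their summed level was 1356 to 5160.4 CPM in kainate and 349 to 381 CPM in saline. The highest sums were those of mice 21 (5160.4 CPM) and 35 (3739 CPM), which were also highest in the 6 called Frizzled genes at day 7. Fibroblast and meningeal markers were called up for 6 of 8 genes at day 3 and 7 of 8 at day 7. Their day 7 sums were 617 CPM in mouse 21 and 466 CPM in mouse 35, and 108 and 148 CPM in mice 23 and 26, against 92.8 to 109 CPM in saline. In the EZ at day 14, where no Frizzled gene was called, 6 of 8 microglia and 2 of 8 astrocyte markers were called up. These calls were all lost with mouse as a block and with only the compared groups fitted, where 0 genes were called, and the summed microglia markers were 2505 CPM in mouse 27 and 392 to 575 CPM in the other 3 kainate mice.

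Astrocyte markers were called up for 4 of 8 genes and down for 1 at day 3, and up for 6 of 8 at day 7. Their day 7 sums of 11210.0 to 12737 CPM in kainate lay above the 4954 to 5649 CPM in saline, without the same split between mice. Proliferation markers were called up for 8 of 8 genes at both days. Oligodendrocyte lineage markers were called up for 3 of 8 and 5 of 8 genes, and neural stem cell and immature neuron markers for 1 of 8, with 1 down, and 4 of 8. Of the choroid plexus and ependyma markers 1 of 6 tested was called up and 1 down at each day.

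Granule cell markers were called down for 2 of 6 genes at both days in the EZ, and CA pyramidal markers for 4 of 6 at day 3 and 5 of 6 at day 7, whose day 7 sums were 67.9 to 142 CPM in kainate and 231 to 456 CPM in saline. In the PIZ at day 3 no Frizzled gene was called. There 8 of 8 microglia, 7 of 8 proliferation and 4 of 8 astrocyte markers were called up, beside 7.12% of all genes. Of the fibroblast and endothelium markers 0 of 8 each were called. Among oligodendrocyte lineage and neural stem cell markers 1 of 8 each was up, and 1 of 6 tested choroid plexus markers. Among granule cell and CA pyramidal markers 1 of 6 each was called down, beside 1.57% of all genes. No marker gene in the lists of microglia, astrocyte, fibroblast, endothelium or granule cells was at 0 counts throughout a group. The part of these cell types in the Frizzled values was not tested.

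Calls among the ligands of Frizzled went in both directions, and most tested ligands were not called. Of 19 Wnt genes 15 were tested, and in the EZ 5 were called up and 1 down at day 3, and 4 up and 2 down at day 7. Over all genes 16.1% were called up and 8.61% down at day 3, and 20.6% up and 11.9% down at day 7. These shares also apply to the EZ counts of the lists below. The ligand called down at day 3 is not among those named here. Wnt7b, the most abundant, rose by 1.39 ± 0.17 in the EZ and by 1.07 ± 0.17 in the PIZ at day 3 (edgeR adjusted p = 1.08e-07 and 1.93e-05). Wnt7a, the next, stood at 0.34 ± 0.19 in the EZ and was not called. Wnt10a rose by 2.60 ± 0.46 at EZ day 3 and 2.02 ± 0.46 at PIZ day 3. Wnt10b rose by 2.44 ± 0.52 at EZ day 3 and 2.27 ± 0.51 at EZ day 7, and stood at -0.45 ± 0.57 in the PIZ at day 3. Wnt2b was called up at EZ day 3 on few reads, with 0 to 81 counts over all 48 libraries.

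Of 9 tested other ligands and binding partners, 1 was called up and 1 down in the EZ at day 3, and 2 up and 1 down at day 7. Ndp, which encodes norrin, the ligand of Fzd4, rose by 0.78 ± 0.17 at day 3 and 0.96 ± 0.17 at day 7, while Fzd4 itself was not called. Tspan12, the partner of Fzd4 in norrin signalling, stood at 0.06 ± 0.15 at day 3 and rose by 0.70 ± 0.15 at day 7. Gpc3, a glypican that binds Wnt and Frizzled, fell by 1.52 at EZ day 3 and by 1.66 at EZ day 7. Gpc4, the most abundant of the list, stood at 0.28 ± 0.19 and 0.49 ± 0.19 and was not called.

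Of 6 co-receptors, 3 were called up and 1 down at both days in the EZ. Lrp5 rose by 1.07 ± 0.25 at day 3 and 2.12 ± 0.26 at day 7 (edgeR adjusted p = 5.53e-04 and 3.68e-08). Its close relative Lrp6, the most abundant co-receptor, stood at 0.00 ± 0.08 and 0.24 ± 0.08 and was not called. Ptk7 rose by 0.82 ± 0.18 and 0.88 ± 0.18, and Ror2 was called up at both days on few reads, since it held 1 to 49 counts over all 48 libraries. Ror1 fell by 1.43 at day 3 in the EZ and by the same 1.43 in the PIZ, and Ryk stood at 0.28 ± 0.10 and was not called.

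Of the 5 genes of Frizzled turnover, 1 was called, at both days in the EZ. Rnf43 rose by 0.88 ± 0.22 at day 3 and 0.74 ± 0.22 at day 7, and the more abundant Znrf3 and Lgr4 stood at -0.10 ± 0.10 and -0.27 ± 0.10 at day 3. Of 6 secreted decoys and Wnt binders, 1 was called down at day 3, and 2 up and 1 down at day 7. Sfrp1, which binds Wnt away from Frizzled, rose by 2.82 ± 0.44 at day 7, and Wif1 fell by 1.49 at day 3 and by 1.52 at day 7. Frzb, the most abundant decoy, stood at -1.11 ± 0.40 at day 3 with an adjusted p of 0.0207. Sfrp5 was called up at EZ days 7 and 14, the day 14 call being lost with mouse as a block and with only the compared groups fitted, and no fold is given because it held only 0 to 76 counts over all 48 libraries.

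Of 8 intracellular partners, 2 were called down at day 3, and 1 up and 2 down at day 7 in the EZ. Dlg4, a synaptic scaffold that binds Frizzled tails, fell by 0.67 and by 0.73, and Magi3 fell by 0.75 and by 0.66. Daam2, a formin below Dishevelled, stood at -0.03 ± 0.14 at day 3 and rose by 0.73 ± 0.14 at day 7. Smo, the Hedgehog signal transducer and the nearest relative outside the family, rose by 0.82 ± 0.16 at EZ day 7.

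Of 7 tested feedback targets of beta-catenin, 2 were called up and 1 down at EZ day 3, and 2 up at day 7. The 2 were Tcf7, at 1.12 ± 0.27 and 1.34 ± 0.27, and Lef1, at 0.67 ± 0.21 and 0.86 ± 0.21, both transcription factors of the pathway. Notum, an enzyme that inactivates Wnt, fell by 1.03 at day 3. Apcdd1, a Wnt inhibitor, stood at 0.44 ± 0.11 and 0.51 ± 0.11, and Axin2, the most abundant of the list and a widely used readout of the pathway, at -0.25 ± 0.12 at day 3 and -0.41 ± 0.12 at day 7. None of these values passed the fold change threshold. In the PIZ at day 3, 2 Wnt ligands were called up and 1 down, as were 1 co-receptor and 1 other binding partner down, and at PIZ days 7 and 14 no gene of these lists was called.

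**Figure D5:**
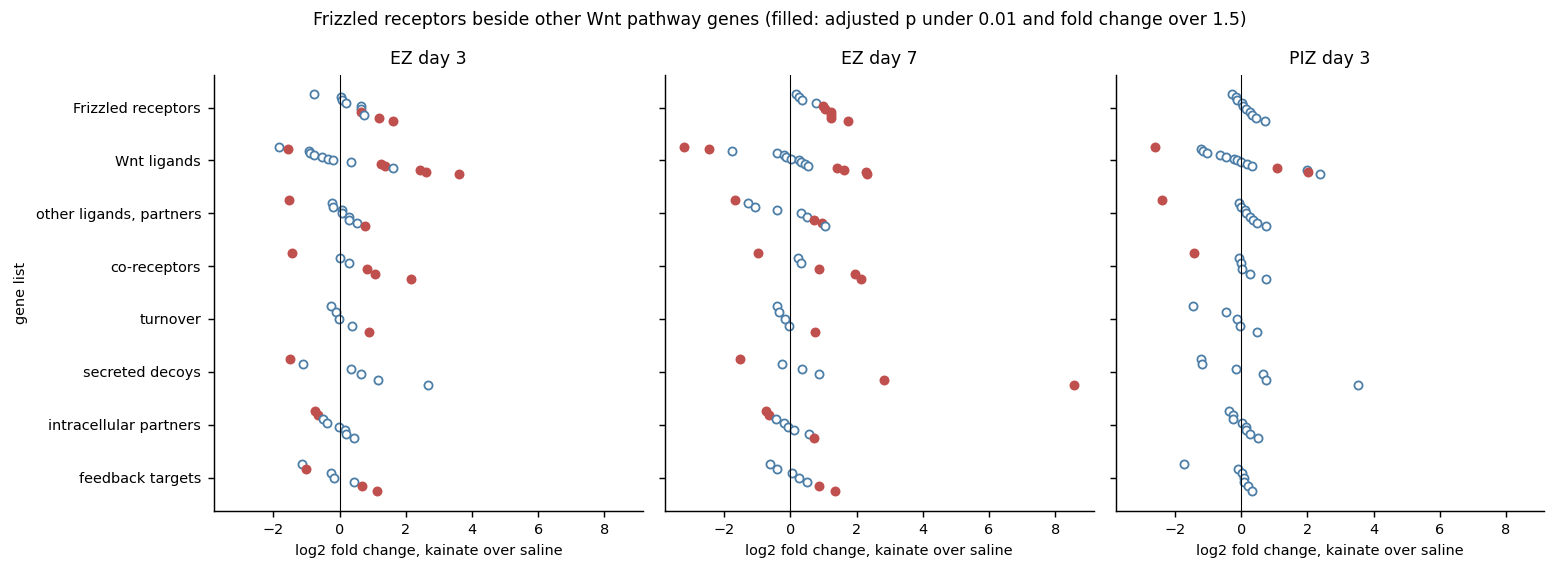
Log2 fold change of kainate over saline for each tested gene of the Frizzled list and 7 other Wnt pathway lists, at EZ day 3, EZ day 7 and PIZ day 3, with calls in filled red and points set apart vertically for legibility only. The point at the far right is Sfrp5, whose fitted value is set against a saline group at 0 counts. All 6 called Frizzled genes at EZ day 7 lie to the right of 0, whereas the calls among ligands, partners and co-receptors lie on both sides.

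The promoters of the called members were read for motifs because several of them were called in the same comparisons. For each member the 250 bases before the start of its canonical transcript in Gencode M39 were taken from GRCm39. The TCF/LEF core CTTTGAT was in none of the 10 windows on either strand, and 2.86% of 21770 windows of protein-coding genes held it. This says only that these letters are not in these windows. The GC box GGGCGG was in 36.3% of all windows and the CCAAT box in 36.5%. Windows of Fzd1, Fzd5, Fzd7 and Fzd9 are printed from the strand of the gene, with every match of GGGCGG or CCAAT on either strand in capitals. Matches may overlap.
Fzd1, chr5:4808036-4808285, minus strand: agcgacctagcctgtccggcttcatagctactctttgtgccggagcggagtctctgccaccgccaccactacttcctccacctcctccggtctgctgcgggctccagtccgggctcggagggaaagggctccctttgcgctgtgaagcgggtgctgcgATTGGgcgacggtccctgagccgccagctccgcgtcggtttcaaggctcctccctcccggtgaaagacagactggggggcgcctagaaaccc
Fzd5, chr1:64776935-64777184, minus strand: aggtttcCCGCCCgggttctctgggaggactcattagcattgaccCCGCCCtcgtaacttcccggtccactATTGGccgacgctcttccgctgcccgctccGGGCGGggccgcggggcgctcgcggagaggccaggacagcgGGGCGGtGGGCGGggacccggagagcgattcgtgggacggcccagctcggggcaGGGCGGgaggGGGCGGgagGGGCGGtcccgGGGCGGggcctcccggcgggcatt
Fzd7, chr1:59521019-59521268, plus strand: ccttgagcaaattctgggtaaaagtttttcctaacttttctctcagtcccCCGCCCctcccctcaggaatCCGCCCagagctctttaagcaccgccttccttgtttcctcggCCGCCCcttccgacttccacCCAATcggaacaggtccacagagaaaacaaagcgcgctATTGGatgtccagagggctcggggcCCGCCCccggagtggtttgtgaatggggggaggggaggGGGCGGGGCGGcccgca
Fzd9, chr5:135280085-135280334, minus strand: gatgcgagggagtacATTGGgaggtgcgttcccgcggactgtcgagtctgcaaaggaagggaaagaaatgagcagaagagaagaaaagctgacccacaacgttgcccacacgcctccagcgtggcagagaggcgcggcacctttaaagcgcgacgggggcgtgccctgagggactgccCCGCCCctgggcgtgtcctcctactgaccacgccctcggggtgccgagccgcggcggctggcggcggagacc
The Fzd5 window held 9 GC boxes, the Fzd7 window 6, the Fzd9 window 1 and the Fzd1 window 0, so the called members did not share this motif. Fzd4, which was not called, held 7. The Fzd6 window, which overlaps its own exon and is not printed, held neither a GC box nor a CCAAT box, though Fzd6 was called. A CCAAT box was in all 4 printed windows, once in Fzd1, Fzd5 and Fzd9 and 2 times in Fzd7, and it was also in the window of Fzd8, which was called and held 2 GC boxes, and in those of Fzd2, Fzd4 and Fzd10, which were not called.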

How the data were processed

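RNA from the dorsal dentate gyrus of both sides of 24 mice was measured as 48 bulk polyA libraries. Per the labels and the study's methods, the authors made stranded libraries, trimmed reads with fastp 0.20.1, aligned them to GRCm39 with HISAT2 2.2.1 and counted them on Gencode genes with featureCounts of Subread 1.6.4. The authors deposited raw counts per gene, which were used as they stand. Reads with several matches were counted at their primary alignment, so genes with near-identical stretches are uncertain there.

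Of 55357 gene IDs, 54749 matched Gencode M39, which gave symbols, positions, lengths and promoter windows. Low counts were removed with filterByExpr by group, libraries scaled by TMM, and the rest fitted with edgeR 4.0.16 (R 4.3.3) as 12 group means over all 48 libraries. Intervals are 95% intervals from that fit. The test was checked on simulated data. The 2 libraries of a mouse come from 1 animal, so fits with mouse in the model were run as an alternative. For comparisons within a region this was limma-voom (limma 3.58.1) with mouse as a block. For the differences between regions and the saline EZ against the saline PIZ it was edgeR with a term for each mouse. The correlation of the deviations of the 2 libraries of a mouse from their group means ran from -0.0536 to 0.376. It was over 0.1 in 20 of 24 mice. DESeq2 1.42.0, other scalings, filters and thresholds, and leaving out each mouse with both its libraries, were further alternatives.

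The 10 genes and all lists were chosen with earlier results of these data known. From each pathway list the text names the 2 genes with the highest level per kb and at most 4 called genes with the smallest p at EZ day 3. Genes most alike to a member are the 3 with the highest Pearson r over the 48 libraries. An exact test meant for members under the filter was not needed, since all 10 passed. Promoter windows are the 250 bases before the canonical start. Sex was not a term in the model, because it was not given by sample and was not read from sex-linked genes.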

Additional observations from a re-analysis of the deposited data

Results flagged for a closer look

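In 5 of 120 gene and group combinations, 1 library of 4 stood apart from the others by Dixon's criterion, which chance alone flags in about 1 of 20 groups. Fzd2 in the PIZ of kainate mouse 40 at day 14 measured 6.25 CPM, where the other 3 libraries held 4.44 to 4.57 CPM. Fzd5 in the PIZ of saline mouse 34 at day 7 measured 2.03 CPM, against 1.26 to 1.34 CPM. Fzd7 in the PIZ of saline mouse 20 at day 7 measured 4.44 CPM, against 6.05 to 6.34 CPM. Fzd10 in the EZ of kainate mouse 27 at day 14 measured 0.952 CPM, against 0.292 to 0.353 CPM, and in the EZ of kainate mouse 38 at day 3 it measured 0.421 CPM, against 0.145 to 0.191 CPM.

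In the test of the difference between regions, the kainate effect at day 7 was larger in the EZ than in the PIZ by 1.33 on the log2 scale for Fzd1 and by 1.71 for Fzd5 (edgeR adjusted p = 0.00779 and 0.00545). For both genes the EZ level was higher than the PIZ level in 4 of 4 kainate mice, and in the saline mice of that day in 2 of 4 for Fzd1 and 3 of 4 for Fzd5.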

How the results depend on the processing

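Of 2599 values under the alternatives, 2524 kept their side of the threshold, 26 lost a call and 49 gained one. No called value turned in sign, but 77 uncalled values did. The causes of the changes were not tested. At EZ day 3, 3 members were called by edgeR, 6 by limma-voom with quality weights, 6 at an adjusted p under 0.05 and 1 by glmTreat against a 1.5-fold change. At EZ day 7, glmTreat called 3 of the 6, and at PIZ day 3 an adjusted p under 0.05 gave 1 call where there were 0. For the difference between regions, limma-voom called 2 members at day 3 where edgeR called 0. At day 7 edgeR called 2, DESeq2 3, limma-voom 6, edgeR with no filter for low counts 0, an adjusted p under 0.05 gave 5 and glmTreat 0. For the change from day 3 to day 7 in the EZ, limma-voom called 1. From day 7 to day 14, DESeq2 called 3, limma-voom 5 and an adjusted p under 0.05 gave 3, where edgeR called 0. Leaving out 1 mouse gave 2 to 4 calls at EZ day 3, 5 to 6 at EZ day 7, 0 to 4 for the difference between regions at day 7, 0 to 4 for the change from day 7 to day 14, and 0 in the other comparisons.

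With mouse as a replicate block in limma-voom, Fzd8 was called at EZ day 3 (0.65). With a term for each mouse in edgeR, Fzd8 was called for the difference between regions at day 7 (1.08). Limma-voom with quality weights and no block made both calls too. In the fits with mouse, no other call of a member changed against edgeR without it. A minimum of 10 counts in every library left Fzd10 without a value. Over all genes, EZ day 3 had 5280 calls, and 2242 by glmTreat. EZ day 7 had 6960, and 3847 with only the compared groups fitted and 3448 by glmTreat. EZ day 14 had 496 up and 8 down, and in all 58 by limma-voom, 304 with at least 10 counts in every library, 0 with only the compared groups, 0 with the block, 137 by glmTreat and 1030 at an adjusted p under 0.05. PIZ day 3 had 1858, and 601 by glmTreat and 2818 at an adjusted p under 0.05. PIZ day 7 had 43, and 198 by DESeq2, 822 by limma-voom, 154 with only the compared groups, 229 at an adjusted p under 0.05, 4 by glmTreat and 24 with the block. PIZ day 14 had 3, and 7 by DESeq2, 96 by limma-voom, 6 at an adjusted p under 0.05 and 0 by glmTreat. Counts of 0 to 61 a library limit Fzd10, and 16 to 116 limit Fzd5.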
